A study of Mus musculus with 13 samples.

Results

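Interferon-stimulated genes are genes whose RNA rises when a cell receives interferon, and 35 of them were followed here through the livers of mice given TAA. The 35 were a named list, and every probe whose annotated gene symbol was on that list was read. Of the 35 genes, 34 had a probe, and their 54 probes were part of the 25697 on the array. Ifi44, a cytoplasmic effector, had no probe named for it. A gene was tested when a probe of it was detected (detection p under 0.01) on at least 3 arrays, which left 28 of the 35, among 8027 genes tested in all.

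Total liver RNA of female C57BL/6 mice was hybridised to 13 bead arrays of 1 colour (Illumina MouseRef-8). Untreated (naive) mice gave 3 arrays, and mice under TAA gave 3 after 1 week, 4 after 4 weeks and 3 after 6 weeks, TAA being a name commonly used for thioacetamide, a poison of the liver. Neither age, dose, route nor dosing scheme is in the labels. They do not say whether samples of a group came from separate animals, so the p-values measure only the spread between these samples.

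Interferons reach the nucleus by JAK kinases and STAT proteins. Type I interferons (the alpha and beta forms) act through a complex that holds STAT2 and IRF9 and binds the interferon-stimulated response element, and the Ifit, Oas and Mx families are their classical antiviral targets. Interferon gamma, made mainly by T cells and NK cells, acts at gamma-activated sites and through IRF1. It is the main inducer of the guanylate-binding proteins (Gbp) and the immunity-related GTPases (Igtp, Irgm1, Irgm2, Iigp1, Ifi47), families that act against intracellular microbes. The classes overlap, since many of these genes answer to either interferon.

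The promoters shown are of the tested genes with the largest changes in those 2 classes among the windows that hold a core of the elements through which interferon signals are read, 2 of type I targets and 4 of gamma targets. Ifi47, whose change was the largest fall among the gamma targets, has a window with neither core, and no window was found for Mx2. Each window runs from 250 bases before the annotated start to 50 bases after it (RefSeq, GRCm38.p6), 5′ to 3′ on the strand of the gene. Capitals mark the cores searched on both strands, GAAA, any 2 bases and GAAA for the interferon-stimulated response element, and TTC, any 3 bases and GAA for the gamma-activated site, where cores may overlap. The windows lie at chr19:34583279-34583578 (plus strand) for Ifit3, chr19:34550444-34550743 (plus) for Ifit2, chr11:48871371-48871670 (minus) for Irgm1, chr11:58199306-58199605 (plus) for Igtp, chr11:58214727-58215026 (plus) for Irgm2 and chr3:142620413-142620712 (plus) for Gbp2.
Ifit3: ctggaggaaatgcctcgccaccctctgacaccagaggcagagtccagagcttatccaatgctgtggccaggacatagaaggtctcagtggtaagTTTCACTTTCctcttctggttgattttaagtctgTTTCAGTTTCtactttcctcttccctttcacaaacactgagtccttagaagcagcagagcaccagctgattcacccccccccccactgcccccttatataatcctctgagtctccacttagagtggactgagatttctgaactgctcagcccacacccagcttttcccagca
Ifit2: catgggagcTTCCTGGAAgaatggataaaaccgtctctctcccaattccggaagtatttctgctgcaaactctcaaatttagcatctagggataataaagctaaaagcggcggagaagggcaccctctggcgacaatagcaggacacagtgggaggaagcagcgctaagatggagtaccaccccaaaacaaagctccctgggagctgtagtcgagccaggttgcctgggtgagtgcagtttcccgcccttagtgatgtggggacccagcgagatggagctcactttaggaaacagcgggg
Irgm1: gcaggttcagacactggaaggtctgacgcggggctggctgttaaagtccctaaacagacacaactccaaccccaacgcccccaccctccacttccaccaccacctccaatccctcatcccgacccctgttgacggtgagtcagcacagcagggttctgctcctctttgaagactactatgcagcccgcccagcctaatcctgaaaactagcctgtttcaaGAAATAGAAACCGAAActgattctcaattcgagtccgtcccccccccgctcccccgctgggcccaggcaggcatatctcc
Igtp: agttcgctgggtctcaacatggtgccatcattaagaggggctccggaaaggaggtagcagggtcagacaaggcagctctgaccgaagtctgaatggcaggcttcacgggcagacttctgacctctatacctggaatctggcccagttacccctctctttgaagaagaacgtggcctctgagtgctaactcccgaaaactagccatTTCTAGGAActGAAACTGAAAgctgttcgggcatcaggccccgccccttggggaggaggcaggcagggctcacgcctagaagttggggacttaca
Irgm2: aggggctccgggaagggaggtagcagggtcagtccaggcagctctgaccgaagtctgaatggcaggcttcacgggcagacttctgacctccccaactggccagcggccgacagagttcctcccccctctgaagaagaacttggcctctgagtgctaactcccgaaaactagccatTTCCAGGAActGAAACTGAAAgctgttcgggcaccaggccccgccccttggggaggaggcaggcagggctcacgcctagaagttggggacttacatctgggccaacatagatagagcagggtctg
Gbp2: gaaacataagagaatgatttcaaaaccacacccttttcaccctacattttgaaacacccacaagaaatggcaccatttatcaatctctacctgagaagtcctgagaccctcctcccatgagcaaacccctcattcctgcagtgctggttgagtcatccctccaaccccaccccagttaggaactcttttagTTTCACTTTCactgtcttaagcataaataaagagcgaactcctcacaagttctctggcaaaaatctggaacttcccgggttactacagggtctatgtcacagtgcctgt

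The type I targets Ifit3 and Ifit2 are neighbours on chromosome 19 but differ in this window. Ifit3 holds 2 response element cores, whose first bases lie 156 and 122 bases before the start, and Ifit2 holds none of them and 1 gamma-site core. Ifit2 has 2 annotated windows, of which the one with more cores is shown, and neither holds a response element core. The 4 gamma targets shown each hold at least 1 response element core, at 34 bases before the start in Igtp, 64 in Irgm2, 59 in Gbp2 and, as an overlapping pair, 30 and 24 in Irgm1. Igtp and Irgm2, adjacent on chromosome 11, share an identical run of 61 bases that holds none of the marked cores, and in both a gamma-site core stands 2 bases ahead of the response element core.

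Among all 32851 promoter windows of this length, 3.44% hold the response element core and 8.3% the gamma-site core. A window was found for 27 of the 35 listed genes. Of their 32 windows, 43.8% hold the response element core and 28.1% the gamma-site core. The response element core was found in 5 of the 7 windows of gamma targets (71.4%) and 3 of the 7 of type I targets (42.9%). A match describes letters in this window and is no measure of binding.

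The arrays differed in brightness. Mean intensity ran from 472 to 587 on the naive arrays, 177 to 479 at 1 week, 456 to 611 at 4 weeks and 195 to 273 at 6 weeks, and 8344 to 10980 probes were detected per array. In 7 genes the arrays split with a gap of at least 1 log2 unit into the same 2 sets. The first set holds the naive arrays, the 4-week arrays and 1-week array A, and the second holds 1-week arrays B and C and all 6-week arrays. Ifngr2, an interferon gamma receptor chain, and Prf1, a T and NK cell granule protein, are among the 7 genes. Values at 4 weeks against naive lie within the first set. No set holds both naive and 6-week arrays, so array set and treatment time cannot be told apart there except through the 1-week arrays.

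Values are given on the log2 scale after background correction and quantile normalization, so that 1 unit is a doubling of the intensity, in the order of the arrays' letters. Changes are differences of group means with their standard error (SE), tested in 1 limma model over all 13 arrays, and a gene was called when its adjusted p over all 8027 genes was under 0.05. In RNA of a whole organ, fewer cells that express a gene and less RNA of it per cell cannot be told apart.

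Of the 28 tested members, 20 were detected on every array. The dimmest array, 1-week C, missed 7 of them (Ifit2, Oas2, Mx2, Irf7, Stat2, Zbp1 and Tap1). Ifit1, Oas1a, Mx1, the RNA sensor Ifih1 and the apoptosis-related Xaf1 were detected on 0 of 13 arrays, and the immunity-related GTPase Iigp1 on 1. These 6 are not well above background, and no change is given for them.

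Most of the interferon-stimulated genes that passed the test were lower in TAA liver than in naive liver. At 1 week 7 of the 28 tested members were called lower and 2 higher, where 12.3% of all tested genes were lower and 13.3% higher. At 4 weeks 9 were lower and 1 higher (all genes 12.9% lower and 15.2% higher). At 6 weeks 14 were lower and 1 higher (all genes 16.4% lower and 22.4% higher). The arrays of the group did not overlap those of the naive group in 11 members at 1 week (36.3% of all genes), 17 at 4 weeks (45.4%) and 18 at 6 weeks (52.7%). As shares, 25%, 32.1% and 50% of the tested members were lower at the 3 times.

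The median change of the tested members was -0.29 at 1 week, -0.58 at 4 weeks and -0.69 at 6 weeks, beside 0.02, 0.03 and 0.09 over all genes. In total 17 members were called in a comparison with naive, and 6 were called at all 3 times. Ifit3, Gbp3, Igtp, Irgm2, Ifi47, Irf9, Isg15, Ifitm3 and Parp14 were lower at both 4 and 6 weeks. The 11 members never called were Ifit2, Oasl1, Oasl2, Oas2, Mx2, Stat2, Usp18, Zbp1, Tap1, Tap2 and Ifi35.

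With each of the 13 arrays left out in turn, the calls of Irgm1, Irf9 and Lgals3bp were kept at 1 week, and those of Gbp3, Igtp, Irgm1, Irgm2, Ifi47, Isg15 and Parp14 at 4 weeks. At 6 weeks the same 7 and Ifit3 kept their calls, and every other call against naive liver was lost without at least 1 array. With the array set as a term in the model, the 4-week counts were 11 lower and 1 higher (30.1% of all genes called in either direction). At 1 week they were 1 lower and 2 higher (14.3%), and at 6 weeks 0 and 0 (11.6%), where limma gave 2 lower and 1 higher at an unadjusted p under 0.05. The term rests on the 1-week arrays alone, since that is the only group with arrays in both sets. The 6-week median of the members was then -0.09 and the 1-week median -0.01.

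**Figure D1:**
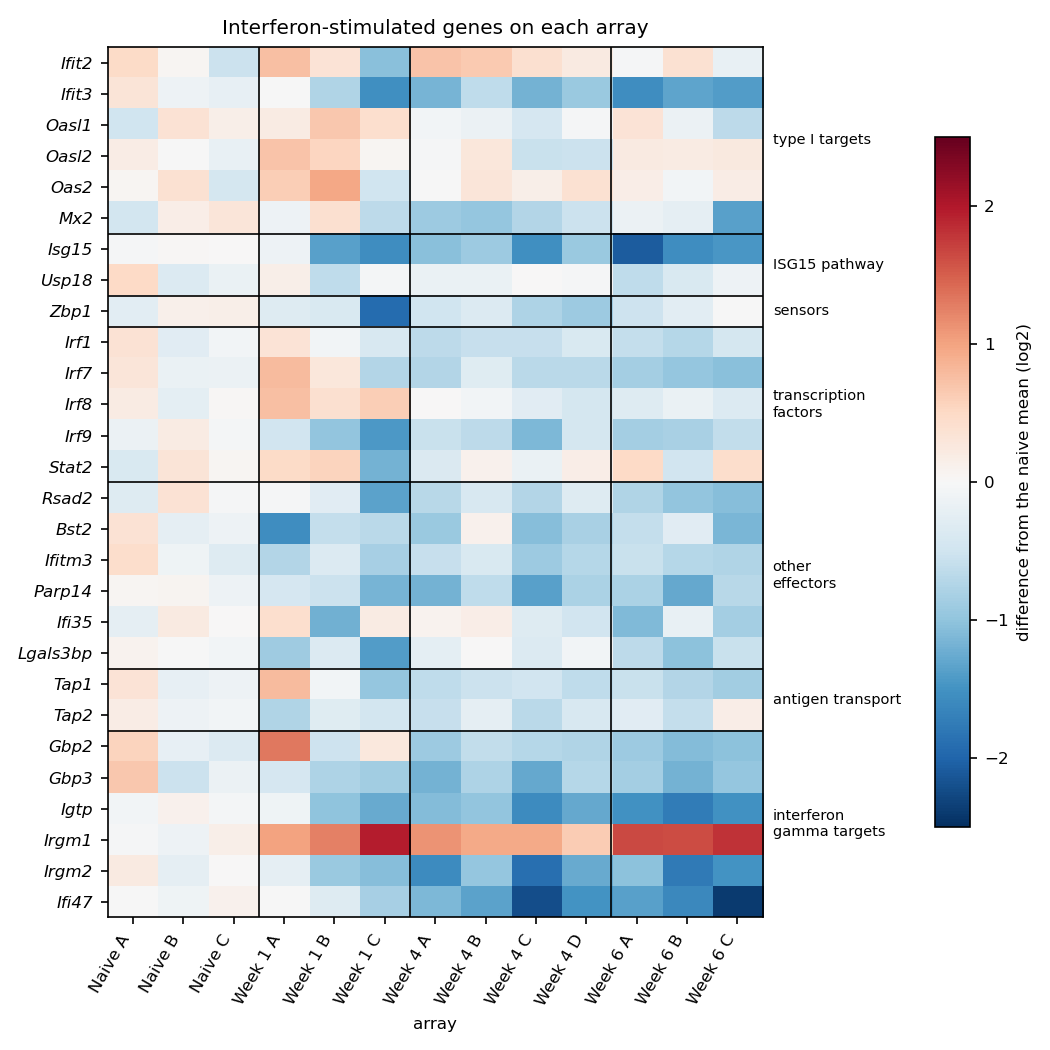
Difference of each tested member from its naive mean (log2, blue below and red above) on each of the 13 arrays, with members in rows by class. The 4-week and 6-week columns are blue in most rows, Irgm1 is red on all TAA arrays, and 1-week array A is closer to naive than arrays B and C in rows such as Igtp and Isg15.

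Of the 9 type I targets, Ifit, Oas and Mx genes, 6 were tested, and Ifit3 was the only one called, at 4 and at 6 weeks. That is 16.7% lower at either time, beside 12.9% and 16.4% of all genes. At an unadjusted p under 0.05 limma gave 1 lower at 1 week, 2 at 4 weeks and 1 at 6 weeks, and none higher. Ifit3, which joins the other Ifit proteins in binding foreign RNA, was at 9.70, 9.24 and 9.18 on the naive arrays, 9.37, 8.63 and 7.83 at 1 week, 8.22, 8.74, 8.19 and 8.45 at 4 weeks, and 7.81, 8.05 and 7.98 at 6 weeks. All 4-week and 6-week arrays were below every naive array, while 1-week array A lay within the naive range. The change was -0.76 ± 0.30 (SE) at 1 week (adjusted p = 0.0739), -0.97 ± 0.28 at 4 weeks (adjusted p = 0.0177) and -1.42 ± 0.30 at 6 weeks (adjusted p = 0.00193, 2.68-fold lower). The 6-week change was -0.28 with the array set in the model.

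The other 5 tested type I targets had changes between -0.79 and 0.50 over the 3 times, and none was called. Ifit2, the neighbour of Ifit3, was at 0.01 ± 0.37, 0.50 ± 0.35 and 0.06 ± 0.37 (SE) at 1, 4 and 6 weeks. Oas2, which makes the second messenger that activates RNase L, was at 0.36 ± 0.30, 0.20 ± 0.28 and 0.10 ± 0.30. Mx2, a dynamin-like antiviral GTPase, was lower on all 4-week arrays than on any naive array, with a change of -0.79 ± 0.30 that missed the threshold (adjusted p = 0.0659). The adjacent genes Oasl1 and Oasl2 had changes of 0.43 and 0.44 at 1 week, both not called.

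Of the 7 interferon gamma targets 6 were tested, and all 6 were called at 6 weeks. At 4 weeks Gbp3, Igtp, Irgm2 and Ifi47 were lower and Irgm1 higher, and at 6 weeks Gbp2 was lower too. At 1 week Igtp was lower and Irgm1 higher. The arrays of all 6 did not overlap those of the naive group at 4 or at 6 weeks, beside 45.4% and 52.7% of all genes. The lower shares were 16.7%, 66.7% and 83.3% at 1, 4 and 6 weeks, beside 12.3%, 12.9% and 16.4% of all genes. The higher share was 16.7% each time, beside 13.3%, 15.2% and 22.4%. With the array set in the model 0 were lower and 2 higher at 1 week, 5 and 1 at 4 weeks, and 0 and 0 at 6 weeks.

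Ifi47, an immunity-related GTPase also called IRG-47, was at 8.04, 7.93 and 8.16 on the naive arrays, 8.02, 7.72 and 7.22 at 1 week, 6.92, 6.71, 5.83 and 6.55 at 4 weeks, and 6.69, 6.43 and 5.65 at 6 weeks. Every 4-week and 6-week array was below every 1-week array, and the 1-week group overlapped naive. Its change was -0.39 ± 0.30 (SE) at 1 week (adjusted p = 0.372), -1.54 ± 0.28 at 4 weeks (adjusted p = 0.00113, 2.91-fold lower) and -1.78 ± 0.30 at 6 weeks (adjusted p = 4.34e-04, 3.44-fold lower).

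Igtp, also called Irgm3, guards lipid droplets and membranes against the other GTPases. It was at 9.70, 9.88 and 9.71 on the naive arrays, 9.66, 8.75 and 8.51 at 1 week, 8.68, 8.79, 8.20 and 8.49 at 4 weeks, and 8.26, 8.01 and 8.26 at 6 weeks. All TAA arrays lay below the naive arrays, 1-week array A by the least. Its change was -0.79 ± 0.25 (SE) at 1 week (adjusted p = 0.0330), -1.23 ± 0.24 at 4 weeks (adjusted p = 0.00152) and -1.59 ± 0.25 at 6 weeks (adjusted p = 2.64e-04, 3.01-fold lower). Without 1-week arrays B and C the 1-week change was -0.10.

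Irgm2, a regulator of the same GTPase family at the Golgi, was at 10.80, 10.35 and 10.58 on the naive arrays, 10.36, 9.66 and 9.52 at 1 week, 9.01, 9.60, 8.69 and 9.31 at 4 weeks, and 9.55, 8.80 and 9.09 at 6 weeks. Arrays of 4 and 6 weeks covered nearly the same range, wholly below naive. The change was -0.73 ± 0.27 (SE) at 1 week (adjusted p = 0.0634), -1.42 ± 0.26 at 4 weeks (adjusted p = 9.73e-04) and -1.43 ± 0.27 at 6 weeks (adjusted p = 0.00104).

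Gbp3, a guanylate-binding protein that coats microbial vacuoles, was at 8.58, 7.38 and 7.77 on the naive arrays, 7.49, 7.14 and 7.05 at 1 week, 6.73, 7.14, 6.63 and 7.19 at 4 weeks, and 7.05, 6.72 and 6.95 at 6 weeks. Naive array A stood well above the other naive arrays, and the 4-week and 6-week arrays were below all naive arrays. The changes were -0.99 ± 0.25 (SE, adjusted p = 0.00885) at 4 weeks and -1.0 ± 0.27 (adjusted p = 0.00862) at 6 weeks. Without naive array A they were -0.65 and -0.66 and still called. A second Gbp3 probe changed by -0.88 and -1.03 at those times.

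Gbp2, a related protein, was at 8.84, 8.08 and 7.95 on the naive arrays, 9.60, 7.77 and 8.56 at 1 week, 7.39, 7.67, 7.58 and 7.55 at 4 weeks, and 7.38, 7.21 and 7.27 at 6 weeks. Its 1-week arrays spread widely around the naive range, and the later arrays were below both groups. The change was 0.35 ± 0.34 (SE) at 1 week (adjusted p = 0.489), -0.75 ± 0.32 at 4 weeks (adjusted p = 0.0976) and -1.01 ± 0.34 at 6 weeks (adjusted p = 0.0311). Without naive array A the 6-week change was -0.73 and no longer called, and with the array set in the model it was 0.43. In that model the 1-week change was 1.31 ± 0.34 (SE), called higher (adjusted p = 0.0236), and the 4-week change was called lower (adjusted p = 0.0243).

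**Figure D2:**
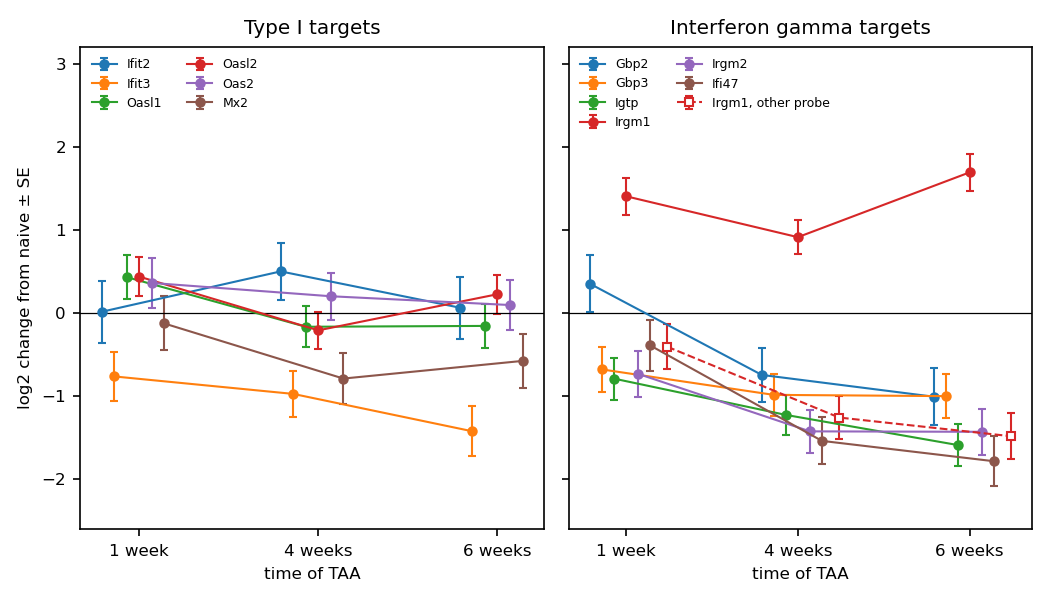
Change from naive (log2, mean difference ± SE) of the 6 tested type I targets (left) and the 6 tested interferon gamma targets (right) at 1, 4 and 6 weeks of TAA, with points shifted sideways so that they can be told apart. At 4 and 6 weeks 5 gamma targets lie below 0, Irgm1 lies above 0 at its tested probe and below 0 at its other probe (open squares), and among type I targets Ifit3 lies lowest at each time.

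Irgm1, whose protein governs the other immunity-related GTPases and autophagy, was read by 2 detected probes that moved in opposite directions. The probe tested, the brighter one (ILMN_2804037), was at 11.58, 11.46 and 11.75 on the naive arrays, 12.60, 12.86 and 13.56 at 1 week, 12.73, 12.54, 12.54 and 12.23 at 4 weeks, and 13.25, 13.22 and 13.40 at 6 weeks. All TAA arrays lay above naive, by 1.40 ± 0.22 (SE, adjusted p = 5.60e-04) at 1 week, 0.91 ± 0.21 (adjusted p = 0.00462) at 4 weeks and 1.69 ± 0.22 (adjusted p = 6.27e-05) at 6 weeks.

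The other Irgm1 probe (ILMN_1234539) was at 8.12, 8.35 and 8.53 on the naive arrays, 8.54, 7.37 and 7.87 at 1 week, 6.99, 7.39, 6.64 and 7.27 at 4 weeks, and 7.14, 6.67 and 6.74 at 6 weeks. Here the 4-week and 6-week arrays were all below naive, with changes of -1.26 ± 0.26 (SE, adjusted p = 0.00221) and -1.48 ± 0.27 (adjusted p = 7.85e-04). Its 1-week change was -0.41 ± 0.27 (adjusted p = 0.297). Across the 13 arrays the Pearson correlation of the probes was -0.598, given as a description over arrays that share groups. Both probes carry the same RefSeq transcript in the annotation, so the direction of Irgm1 RNA is not settled by these arrays. What sets the probes apart was not tested. Read at the other probe, all 6 tested gamma targets were below naive at 4 and 6 weeks.

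**Figure D3:**
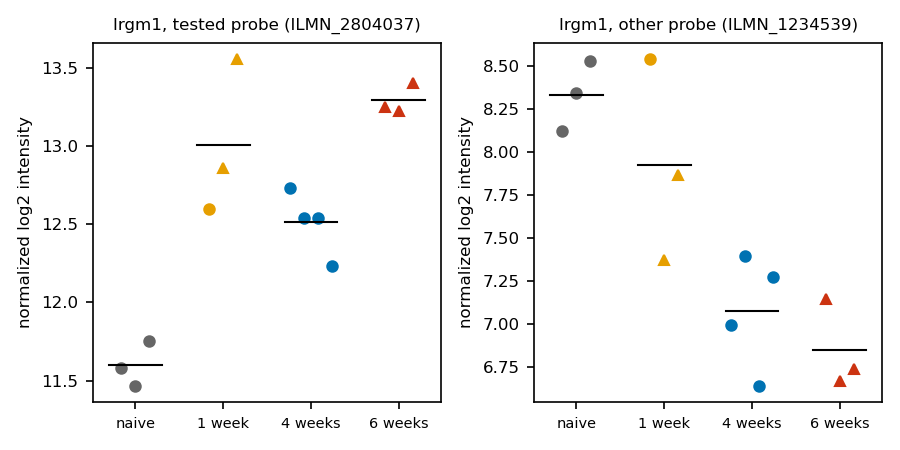
Normalized log2 intensity of the 2 Irgm1 probes past the detection filter on each of the 13 arrays (circles, first array set; triangles, second; bars, group means). The tested probe rises above naive at all 3 times and the other probe falls below naive at 4 and 6 weeks.

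The 2 classes can be set side by side on each array as the mean difference from naive over the 6 tested genes of a class. For type I targets this mean was 0.01, 0.14 and -0.15 on the naive arrays, 0.36, 0.37 and -0.55 at 1 week, -0.24, -0.08, -0.39 and -0.24 at 4 weeks, and -0.16, -0.20 and -0.52 at 6 weeks. For gamma targets it was 0.23, -0.18 and -0.04 on the naive arrays, 0.26, -0.38 and -0.30 at 1 week, -0.79, -0.62, -1.12 and -0.81 at 4 weeks, and -0.67, -0.97 and -0.93 at 6 weeks. On all 7 arrays of 4 and 6 weeks the gamma mean lay below the type I mean, by 0.40 to 0.77.

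On the naive and 1-week arrays the gap between the class means took either sign, from -0.25 to 0.75. The median change of the gamma targets was -0.53, -1.11 and -1.22 at 1, 4 and 6 weeks, and that of the type I targets 0.19, -0.19 and -0.05. Several type I probes were dim. Over the 13 arrays Oas2 averaged 5.34 (detected on 9), and Mx2 5.74 and Ifit2 6.07 (11 each). Oasl1, Oasl2 and Ifit3 averaged 6.89, 7.17 and 8.57, detected on all 13. The gamma targets averaged from 7.07 (Ifi47) to 12.6 (Irgm1), each detected on all 13 arrays. The part of dimness in the gap between the classes was not tested. No p is given for either class, since the members were chosen with results of these data known. With the array set in the model the gamma medians were -0.06, -1.11 and -0.58, and the type I medians 0.40, -0.19 and 0.09. The type I median ran from -0.05 without 1-week array B to 0.49 without 1-week array C at 1 week. It ran from -0.27 without 4-week array B to -0.09 without 4-week array C at 4 weeks, and from -0.17 without 6-week array A to 0.07 without 6-week array C at 6 weeks.

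**Figure D4:**
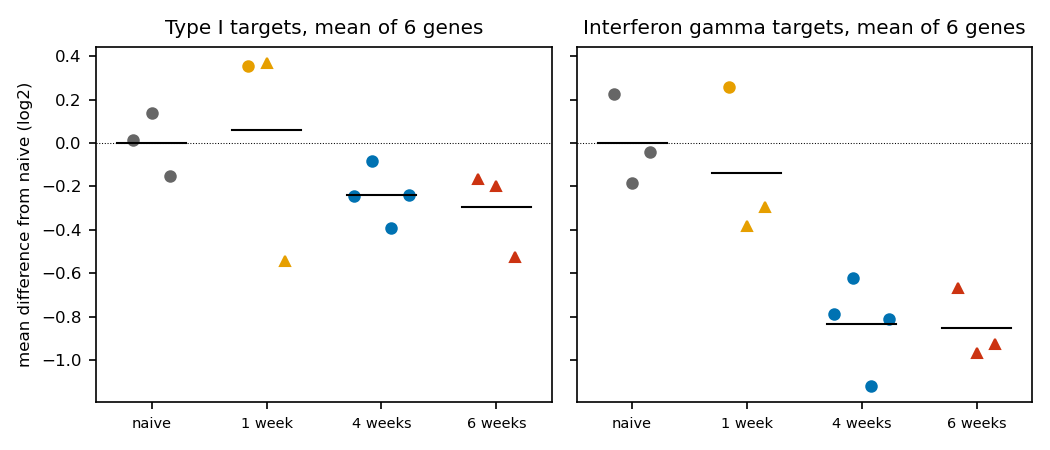
Mean difference from naive (log2) over the 6 tested type I targets (left) and the 6 tested interferon gamma targets (right) on each of the 13 arrays (circles, first array set; triangles, second; bars, group means). Gamma means at 4 and 6 weeks lie between -1.12 and -0.62, and type I means between -0.52 and -0.08.

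All 5 transcription factors were tested, of which 1 was lower and 1 higher at 1 week, 1 lower at 4 weeks and 3 lower at 6 weeks. The lower shares are 20%, 20% and 60%, beside 12.3%, 12.9% and 16.4% of all genes. The higher share at 1 week is 20%, beside 13.3%. With the array set in the model 0, 2 and 0 were lower and 0 higher. Irf9, the DNA-binding part of the type I complex, was at 8.10, 8.44 and 8.19 on the naive arrays, 7.78, 7.26 and 6.80 at 1 week, 7.69, 7.60, 7.13 and 7.80 at 4 weeks, and 7.40, 7.44 and 7.63 at 6 weeks. All 10 TAA arrays lay below all naive arrays. The change was -0.97 ± 0.24 (SE) at 1 week (adjusted p = 0.00892), -0.69 ± 0.22 at 4 weeks (adjusted p = 0.0301) and -0.75 ± 0.24 at 6 weeks (adjusted p = 0.0209). A second Irf9 probe had changes of -0.59, -0.25 and -0.34 that were not called.

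Irf7, the amplifier of type I interferon production, was at 6.73, 6.28 and 6.29 on the naive arrays, 7.23, 6.72 and 5.69 at 1 week, 5.71, 6.13, 5.75 and 5.76 at 4 weeks, and 5.58, 5.48 and 5.40 at 6 weeks. Its 1-week arrays straddled the naive range, and the later arrays lay below it. The changes were 0.11 ± 0.29 (SE, adjusted p = 0.815), -0.60 ± 0.27 (adjusted p = 0.119) and -0.95 ± 0.29 (adjusted p = 0.0190), so Irf7 was lower at 6 weeks. That change was 0.07 with the array set in the model.

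Irf8, a factor of macrophage and dendritic cell identity that interferon gamma induces, was at 5.87, 5.41 and 5.69 on the naive arrays, 6.41, 6.06 and 6.27 at 1 week, 5.66, 5.59, 5.38 and 5.21 at 4 weeks, and 5.34, 5.50 and 5.31 at 6 weeks. It was the only member besides Irgm1 called higher, with all 1-week arrays above all naive arrays. The change was 0.59 ± 0.18 (SE, adjusted p = 0.0260) at 1 week, -0.20 ± 0.17 (adjusted p = 0.414) at 4 weeks and -0.28 ± 0.18 (adjusted p = 0.243) at 6 weeks. The 7 macrophage markers with a probe, of which Cd5l was detected on 0 arrays, summed to 11.4 to 11.5 (log2) on the naive arrays, 11.7 to 12.3 at 1 week, 11.4 to 12.0 at 4 weeks and 10.6 to 11.7 at 6 weeks. Of the 6 tested, Lyz2 was higher at 4 weeks by 1.00 and Clec4f lower at 6 weeks (-1.01). Each is 16.7%, beside 15.2% of all genes higher at 4 weeks and 16.4% lower at 6 weeks. Their median changes were 0.56, -0.16 and -0.36. Leaving out 1 of 5 arrays ended the call of Lyz2, and 1 of 3 that of Clec4f. With the array set in the model 2 were higher at 1 week, 1 at 4 weeks and 0 at 6 weeks, and none was lower. The part of these markers in the Irf8 values was not tested.

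Irf1, the factor that carries part of the gamma response, was at 10.62, 9.96 and 10.18 on the naive arrays, 10.59, 10.19 and 9.85 at 1 week, 9.60, 9.68, 9.69 and 9.87 at 4 weeks, and 9.66, 9.55 and 9.82 at 6 weeks. Both later groups lay below naive without overlap. The change was -0.04 ± 0.21 (SE, adjusted p = 0.902), -0.54 ± 0.20 (adjusted p = 0.0514) and -0.58 ± 0.21 (adjusted p = 0.0411). Of its 3 other detected probes, the largest change was -0.76 at 4 weeks (adjusted p = 0.00790 in the limma fit over all probes). That probe changed by -0.56 at 6 weeks (adjusted p = 0.0384), and the remaining probes were not called against naive in that fit. Stat2, the STAT particular to type I signalling, had changes of -0.05, -0.06 and 0.15, with SEs of 0.39, 0.37 and 0.39.

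Isg15, a ubiquitin-like protein that is joined to newly made proteins, was at 8.43, 8.49 and 8.46 on the naive arrays, 8.34, 7.11 and 6.91 at 1 week, 7.42, 7.56, 6.94 and 7.54 at 4 weeks, and 6.38, 6.91 and 7.01 at 6 weeks. Its naive arrays differed little (SD 0.03), and all TAA arrays lay below them, 1-week array A by the least. The change was -1.01 ± 0.31 (SE) at 1 week (adjusted p = 0.0259), -1.10 ± 0.29 at 4 weeks (adjusted p = 0.0108) and -1.70 ± 0.31 at 6 weeks (adjusted p = 6.94e-04, 3.24-fold lower). Without 1-week arrays B and C the 1-week change was -0.13, and with the array set in the model the 6-week change was -0.37.

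Usp18, the protease that removes ISG15 and damps the type I receptor, was not called at its tested probe, with changes of -0.18, -0.08 and -0.38. Its other 2 probes past the detection filter were below naive at 6 weeks in the limma fit over all probes. One changed by -0.82 (adjusted p = 0.0199). The second was not well above background on any 6-week array and was at least 1.83-fold lower there (adjusted p = 3.00e-04), and it changed by -0.84 at 1 week (adjusted p = 0.0192). Usp18 counts as not called above because only the brightest probe of a gene entered the counts.

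**Figure D5:**
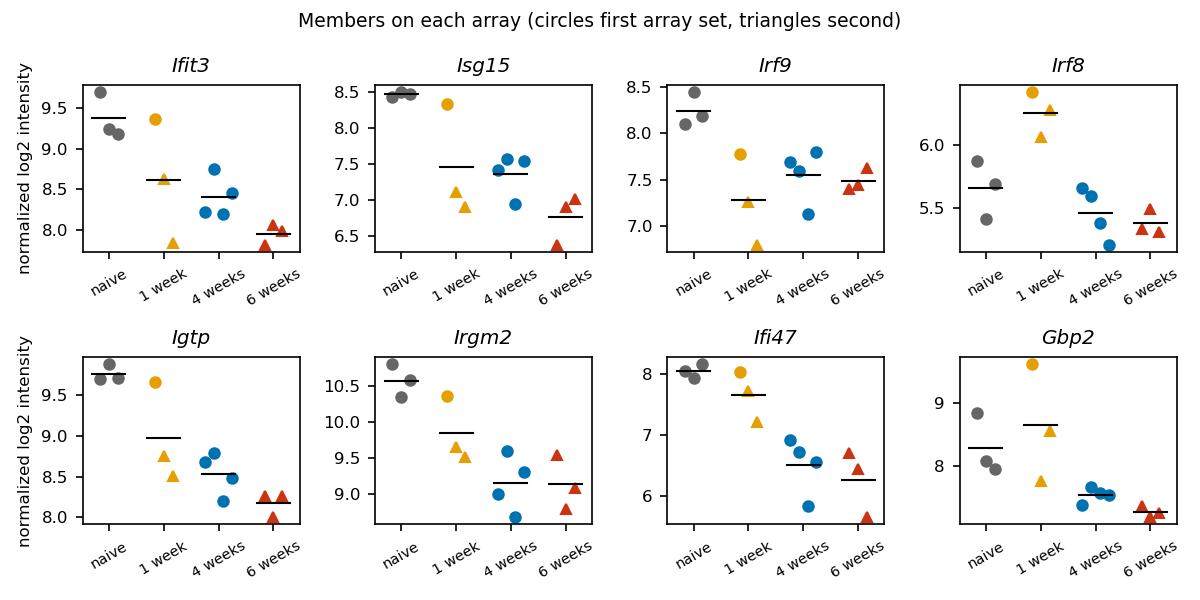
Normalized log2 intensity of 8 members on each of the 13 arrays (circles, first array set; triangles, second; bars, group means; the vertical axes differ between panels and do not start at 0). Igtp, Irgm2, Ifi47, Ifit3, Isg15 and Irf9 lie below naive at 4 and 6 weeks, Gbp2 is spread at 1 week, and Irf8 is high at 1 week only.

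Among the other effectors 4 of 6 tested genes were lower at 1 week, 2 at 4 weeks and 4 at 6 weeks. These shares are 66.7%, 33.3% and 66.7%, beside 12.3%, 12.9% and 16.4% of all genes lower. With the array set in the model 1, 2 and 0 were lower. Parp14, an ADP-ribosyltransferase, was at 9.36, 9.39 and 9.19 on the naive arrays, 8.89, 8.77 and 8.16 at 1 week, 8.13, 8.68, 7.96 and 8.53 at 4 weeks, and 8.52, 8.03 and 8.62 at 6 weeks. All TAA arrays lay below naive, with changes of -0.71 ± 0.24 (SE, adjusted p = 0.0426), -0.99 ± 0.22 (adjusted p = 0.00467) and -0.93 ± 0.24 (adjusted p = 0.00736). Ifitm3, a membrane protein that blocks virus entry, was lower at all 3 times as well with log2 changes of -0.64, -0.65 and -0.68, with adjusted p from 0.0222 to 0.0412. Without naive array A these were -0.42, -0.43 and -0.46 and not called.

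Lgals3bp, a secreted galectin-binding glycoprotein, was at 10.02, 9.93 and 9.88 on the naive arrays, 9.05, 9.61 and 8.55 at 1 week, 9.69, 9.94, 9.60 and 9.87 at 4 weeks, and 9.28, 8.92 and 9.39 at 6 weeks. Its 4-week arrays overlapped naive and the 1-week and 6-week arrays lay below. The change was -0.88 ± 0.23 (SE, adjusted p = 0.0132) at 1 week, -0.17 ± 0.22 (adjusted p = 0.598) at 4 weeks and -0.74 ± 0.23 (adjusted p = 0.0195) at 6 weeks.

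Bst2, or tetherin, which holds budding virus on the cell, was at 10.56, 9.98 and 10.08 on the naive arrays, 8.66, 9.61 and 9.52 at 1 week, 9.27, 10.31, 9.13 and 9.39 at 4 weeks, and 9.61, 9.92 and 9.05 at 6 weeks. It was lower at 1 week with a log2 change of -0.94 ± 0.33 (SE, adjusted p = 0.0482), where array A was the lowest of all. The changes of -0.68 ± 0.31 and -0.68 ± 0.33 later were not called (adjusted p = 0.114 and 0.116).

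Rsad2, or viperin, a radical enzyme that makes a chain-terminating nucleotide, was at 8.25, 8.94 and 8.55 on the naive arrays, 8.55, 8.30 and 7.24 at 1 week, 7.89, 8.17, 7.85 and 8.25 at 4 weeks, and 7.83, 7.58 and 7.50 at 6 weeks. Only the 6-week arrays all lay below naive. The change was -0.55 ± 0.29 (SE, adjusted p = 0.175) at 1 week, -0.53 ± 0.27 (adjusted p = 0.151) at 4 weeks and -0.94 ± 0.29 (adjusted p = 0.0178) at 6 weeks.

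The remaining tested members were not called against naive. Tap1 and Tap2, the peptide pump of antigen presentation, had changes of -0.08 and -0.50 at 1 week, -0.57 and -0.47 at 4 weeks, and -0.72 and -0.23 at 6 weeks. All 4-week arrays of both lay below naive. The nucleic acid sensor Zbp1 was at -0.88, -0.63 and -0.26, and Ifi35, an interferon-induced leucine zipper protein, at -0.19, -0.14 and -0.71.

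Between the TAA times few members were called. At 4 weeks against 1 week Gbp2, Ifi47 and Irf8 were lower, 3 of 28 beside 4.41% of all genes lower, and none was higher (4.4% of all genes; 1 member at an unadjusted p under 0.05 in limma). At 6 weeks against 1 week the same 3 genes and Irf7 were lower (3.9% of all genes) and none was higher (5.28%; 0 members unadjusted). At 6 weeks against 4 weeks Irgm1, at its tested probe, was the only member called, and it was higher (2.22% of all genes), with none lower (3.09%; 1 member unadjusted).

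Against 1 week, Ifi47 changed by -1.15 ± 0.28 (SE) at 4 weeks (adjusted p = 0.0231) and by -1.39 ± 0.30 at 6 weeks (adjusted p = 0.0124). Irf8 changed by -0.79 ± 0.17 (adjusted p = 0.0127) and -0.87 ± 0.18 (adjusted p = 0.0102). Gbp2 changed by -1.10 ± 0.32 (adjusted p = 0.0474) and -1.36 ± 0.34 (adjusted p = 0.0257), values that were -0.62 and -0.88 and not called without 1-week array A. Irf7 changed by -1.06 ± 0.29 at 6 weeks (adjusted p = 0.0369). The 4-week call of Gbp2 was lost in 11 of the 13 leave-outs, all but naive A and 1-week B. Its 6-week call was lost in 4 (1-week A, each 6-week array), and that of Irf7 in 6 (1-week A or B, 4-week D, each 6-week array). The calls of Ifi47 were lost in 2 each, without 1-week A or 4-week C at 4 weeks and without 1-week A or 6-week C at 6 weeks. Those of Irf8 were kept without any 1 array.

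The interferon genes themselves were not seen. Ifnb1, Ifna1, Ifna2, Ifna4, Ifng, Ifnk and the interferon gamma inducer Il12a were detected on 0 of 13 arrays, so no change in the ligands was detectable on these arrays. Il18, a cytokine that drives interferon gamma production, was the tested ligand. It was at 8.11, 7.87 and 7.99 on the naive arrays, 7.57, 7.38 and 7.08 at 1 week, 6.43, 6.76, 6.11 and 6.66 at 4 weeks, and 6.54, 6.37 and 6.43 at 6 weeks. No TAA array reached naive, and the change was -0.64 ± 0.19 (SE, adjusted p = 0.0247), -1.50 ± 0.18 (adjusted p = 5.39e-05) and -1.54 ± 0.19 (adjusted p = 4.90e-05). The 1-week call was lost without naive array A, naive array C or 1-week array C.

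Of 17 receptor and signalling genes 13 were tested, with 3 higher at 1 week, 1 lower at 4 weeks, and at 6 weeks 3 higher and 1 lower. These 3 make up 23.1% of the tested genes at either time, beside 13.3% and 22.4% of all genes. The 1 lower gene is 7.69% at 4 and at 6 weeks, beside 12.9% and 16.4% of all genes. No gene of this list was called at 1 or 6 weeks with the array set in the model. Irf5, a factor downstream of Toll-like receptors, was lower at 4 and 6 weeks with log2 changes of -1.07 ± 0.17 (SE, adjusted p = 4.78e-04) and -0.99 ± 0.19 (adjusted p = 8.73e-04). The receptor chain Il10rb was higher at 1 and 6 weeks by 0.93 and 0.63, Jak1 at 1 week by 0.70 and Ifngr1 at 6 weeks by 0.67. Leaving out 1 of 4 arrays ended the call of Jak1 (naive B or C, 1-week B or C), and 1 of 5 that of Il10rb at 6 weeks (naive A or C, 4-week D, 6-week A or B). Ifngr2 was called higher at 1 and 6 weeks, by 1.53 and 2.21, at a probe that follows the array sets, and its other probe had changes of -0.20, 0.43 and -0.04.

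Of 16 genes of nucleic acid sensing 10 were tested, with 1 lower at 1 week, 3 at 4 weeks and 2 at 6 weeks (10%, 30% and 20%, beside 12.3%, 12.9% and 16.4% of all genes). limma gave none higher at the 3 times, also at an unadjusted p under 0.05. A term for the array set gave 1 higher and 1 lower at 1 week, and 0 higher and 1 lower at 6 weeks (1 higher at an unadjusted p under 0.05). Dhx58, or LGP2, a helicase of the RIG-I family, was lower at all 3 times with log2 changes of -0.74, -0.89 and -0.76. Ddx58, RIG-I itself, was lower at 6 weeks with a log2 change of -0.85, and Mavs and Ikbke, the adaptor and a kinase of that pathway, were lower at 4 weeks with log2 changes of -0.68 and -0.56. Leaving out 1 of several arrays ended the calls of Mavs (any naive array, 4-week A, B or C), of Ikbke (naive B or C, 4-week A), of Dhx58 at 1 week (naive A or B, 1-week C) and of Dhx58 at 6 weeks (naive A or B).

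A further 39 type I responsive genes gave 20 tested, of which 5 were lower and 1 higher at 1 week, 5 and 0 at 4 weeks, and at 6 weeks 8 and 2. The lower shares were 25%, 25% and 40%, beside 12.3%, 12.9% and 16.4% of all genes. The higher shares were 5%, 0% and 10%, beside 13.3%, 15.2% and 22.4%. A term for the array set gave 2 lower and 2 higher at 1 week, and 2 lower and 0 higher at 6 weeks, where the median went from -0.34 to 0.13. Uba7, the enzyme that activates ISG15 for joining, was lower at the 3 times with log2 changes of -1.13, -1.20 and -0.98, and so was Parp12, an ADP-ribosyltransferase, with log2 changes of -0.58, -0.69 and -1.06. Cmpk2, a mitochondrial nucleotide kinase, was lower at 4 and 6 weeks with log2 changes of -0.90 and -0.67. Tor3a, an ATPase of the endoplasmic reticulum, was higher at 1 week by 0.86. The call of Tor3a was lost without any 1 of 9 arrays (each naive and 4-week array, 1-week A or B), and that of Cmpk2 at 6 weeks without any 1 of 7 (naive B or C, 4-week A or D, each 6-week array) and at 4 weeks without naive array C. Parp12 was at -0.36 at 1 week without naive array A and not called, nor without naive B, 1-week A or 1-week C.

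A further 35 interferon gamma responsive genes gave 21 tested, with 4 lower and 3 higher at 1 week, 9 and 2 at 4 weeks, and at 6 weeks 10 and 2. The lower shares were 19%, 42.9% and 47.6%, beside 12.3%, 12.9% and 16.4% of all genes. The higher shares were 14.3%, 9.52% and 9.52%, beside 13.3%, 15.2% and 22.4%. Their median changes were -0.31, -0.47 and -0.56. A term for the array set gave 3 lower and 2 higher at 1 week, and 3 lower and 3 higher at 6 weeks, with a 6-week median of -0.45. H2-K1, a class I heavy chain, was lower at the 3 times with log2 changes of -1.16, -1.17 and -1.63, as was Tapbp, or tapasin, with log2 changes of -1.15, -1.03 and -1.79, and the immunoproteasome subunit Psmb9 at 4 and 6 weeks with log2 changes of -0.86 and -1.31. The 4-week call was lost for Psmb9 without naive array A or 4-week array C, and for Tapbp without naive array C, and Tapbp was at -0.75 at 1 week without 1-week array B. Psme1, a proteasome activator subunit of the same list, had changes of 0.47, 0.32 and 0.32, was not called, and is named after its values were seen. Nlrc5, the activator of class I genes, was lower at 4 weeks with a log2 change of -1.29 ± 0.25 (SE, adjusted p = 0.00139).

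The gamma-induced chemokines Cxcl9 and Cxcl10, which call CXCR3-bearing T cells, went opposite ways. Cxcl9 was at 11.44, 9.23 and 9.20 on the naive arrays, 9.94, 8.77 and 9.52 at 1 week, 8.13, 8.18, 7.43 and 7.95 at 4 weeks, and 7.86, 7.79 and 7.26 at 6 weeks. It was lower at 4 and 6 weeks with log2 changes of -2.03 ± 0.44 (SE, adjusted p = 0.00365) and -2.32 ± 0.48 (adjusted p = 0.00162), and naive array A stood above all others. Without that array the changes were -1.29 and -1.58 and still called. Under the array-set model the 6-week change was -1.53 and not called (adjusted p = 0.259). Cxcl10 was at 5.03, 5.90 and 5.52 on the naive arrays, 7.22, 7.43 and 5.76 at 1 week, 7.91, 7.26, 8.58 and 8.0 at 4 weeks, and 8.11, 7.35 and 6.89 at 6 weeks. It was higher by 1.32 ± 0.43 (adjusted p = 0.0359), 2.46 ± 0.40 (adjusted p = 5.06e-04) and 1.96 ± 0.43 (adjusted p = 0.00257), and no 4-week or 6-week array overlapped naive. The 1-week call was lost without naive A or C or 1-week A or B.

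Markers of the cells that make or answer interferon were read beside these changes. Of 8 hepatocyte markers 7 were tested and Tat was detected on 0 arrays, and their summed level was 15.9 to 16.2 (log2) on the naive arrays, 16.1 to 16.3 at 1 week, 15.9 to 16 at 4 weeks and 16 to 16.3 at 6 weeks. At 4 weeks 2 of the 7 were lower (Pck1 by -1.63 and Serpina1a by -0.60), and at 6 weeks 2 were lower (Pck1 by -1.24 and Cps1 by -0.69). These make 28.6% at each time, beside 12.9% and 16.4% of all genes lower. Leaving out 1 of 6 arrays ended the call of Serpina1a, and 1 of 4 that of Pck1 at 6 weeks. With the array set in the model 2 hepatocyte markers were lower at 4 weeks and 0 at 6 weeks. Of 14 T and NK cell markers 4 were tested, and Cd8a, Cd4, Nkg7, Gzma, Gzmb, Ncr1 and Cd2 were detected on 0 arrays. Prf1 and Klrd1 were higher at 1 week by 1.55 and 1.25. At 6 weeks Prf1 was higher by 2.37, and Cd3g was lower (-0.92). Shares were 50% higher at 1 week, and 25% higher and 25% lower at 6 weeks, beside 13.3%, 22.4% and 16.4% of all genes. The call of Klrd1 was lost without naive C or 1-week A, and that of Cd3g without naive A or 6-week C. With the array set in the model Klrd1 alone was called at 1 week (1.89, limma adjusted p = 0.0123), and none at 6 weeks. The summed level of the 13 with a probe was 8.79 to 8.93 on the naive arrays, 9.23 to 9.99 at 1 week, 8.59 to 8.87 at 4 weeks and 9.77 to 10.2 at 6 weeks, and that list holds Prf1, which follows the array sets. The 7 sinusoidal endothelial markers, of which Kdr was detected on 0 arrays, summed to 12.0 to 12.2, 11.8 to 12.3, 11.9 to 12.3 and 11.6 to 12.0 in the same order. Of the 6 tested, Stab2 was lower at the 3 times with changes of -0.53, -0.72 and -1.06, Pecam1 was lower at 6 weeks by -0.82, and Lyve1 was higher at 1 and 6 weeks by 1.13 and 0.96. The lower shares of these 6 were 16.7%, 16.7% and 33.3%, beside 12.3%, 12.9% and 16.4% of all genes. Their higher shares were 16.7%, 0% and 16.7%, beside 13.3%, 15.2% and 22.4%. Leaving out 1 of 11 arrays ended the 1-week call of Stab2, and 1 of 4 that of Pecam1. The call of Lyve1 was lost at 1 week without naive B or 1-week A, and at 6 weeks without naive B or 6-week A or B. With the array set in the model none of the 6 was called at 1 week. At 6 weeks only Stab2 was then called (-1.36, limma adjusted p = 0.0190), and Pecam1 was at 0.10. Of 8 neutrophil markers the 2 tested, S100a8 and S100a9, were higher at 6 weeks (S100a9 not without naive array C or 6-week array B), Camp, Ngp, Cxcr2, Mpo and Elane were detected on 0 arrays, and the 7 with a probe summed to 7.88 to 8.75, 8.81 to 9.36, 8.17 to 9.95 and 9.27 to 10.1. The 2 are 100% of those tested, beside 22.4% of all genes higher at 6 weeks. With the array set in the model neither S100a8 nor S100a9 was called at 6 weeks (limma adjusted p = 0.119 and 0.181). Of the B cell and the conventional dendritic cell markers 1 each was tested, and neither was called. The part of any of these cells in the changes of the interferon-stimulated genes was not tested.

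Plasmacytoid dendritic cells are the main makers of type I interferon. Of their 7 listed markers 3 were tested, and Ccr9, Klk1 and Spib were detected on 0 arrays. Siglech, a lectin of these cells, was not well above background on any naive array. It was called higher at 1 week (adjusted p = 0.0291) and was at least 1.49-fold higher at 6 weeks (adjusted p = 0.00103), a bound set by the dimmest detected probes of the naive arrays. The 1-week call was lost without any 1 naive array or 1-week array B. With the array set in the model Siglech was not called at 1 or 6 weeks (limma adjusted p = 0.221 and 0.122). Tcf4, the third tested marker, had changes of 0.34, 0.10 and 0.31 at 1, 4 and 6 weeks and was not called. Ly6d, a surface protein that B cell precursors and some epithelia carry too, was not above background on the naive arrays and was at least 5.35-fold, 25.5-fold and 44.1-fold higher at 1, 4 and 6 weeks (adjusted p = 0.00160, 8.95e-06 and 3.96e-06).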

How the data were processed

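Per the file headers, the table of raw values that the authors deposited gives for every array a mean intensity over the beads of a probe, without normalization or background subtraction, and a detection p-value taken against that array's negative control beads. The submitters' processing notes name GenomeStudio. No version of it is stated. A second table, deposited by the authors, gives log2 values centred near 0 for each probe by a method that no label or header records. Over probes its differences from naive followed those of the quantile-normalized raw table (r = 0.996, slope 0.867), so it was read as log2 with higher for brighter, and it served as an alternative.

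Raw intensities were background-corrected with normexp, quantile-normalized and put on the log2 scale with limma's neqc (limma 3.58.1, R 4.3.3, offset 16). A probe was kept when its detection p was under 0.01 on at least 3 arrays (11212 of 25697), and the probe with the highest mean stood for a gene (8027 genes). Of all probes 23978 had a gene symbol in the supplied annotation and 1719 had none. A single limma model over 13 arrays gave moderated two-sided tests with Benjamini-Hochberg adjustment over all genes, called under 0.05. The number of arrays limits the precision. On simulated data the model was tested with known changes before use.

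The 35 members, their classes, the pathway and marker lists were chosen with earlier results of these data known. Values on every array are given for members called against naive, up to 6 in each of the type I and gamma classes and 4 in the others by largest change, and other listed genes are named where called, at most 6 a list. Summed levels of a list add the intensities of its genes before the log2. The letters of the raw table's columns match no replicate number of the labels, so letters are used. Promoter windows come from RefSeq tables for GRCm38.p6. Alternatives changed the background correction, normalization, filter, probe choice, samples in the model and array set, and left out each array. Irgm1 at its other probe, and the left-out arrays and array set for other listed genes, were alternatives chosen after seeing the data.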

Additional observations from a re-analysis of the deposited data

Results flagged for a closer look

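Some members differed between the times of TAA by the test of that difference in limma, adjusted over all genes. Gbp2 changed by -1.10 at 4 weeks against 1 week (adjusted p = 0.0474) and by -1.36 at 6 weeks against 1 week (adjusted p = 0.0257). Ifi47 changed by -1.15 (adjusted p = 0.0231) and -1.39 (adjusted p = 0.0124) in those comparisons, and Irf8 by -0.79 (adjusted p = 0.0127) and -0.87 (adjusted p = 0.0102). Irf7 changed by -1.06 at 6 weeks against 1 week (adjusted p = 0.0369). Irgm1 changed by 0.78 at 6 weeks against 4 weeks (adjusted p = 0.0410) at its tested probe and by -0.22 at its other probe.

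On the 4-week arrays Irf7 had a high value on array B, whose gap to the nearest array was 0.896 of the range of the group. How often chance alone gives such a gap was not tested.

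Probes outside the tests were detected on a TAA array and on no naive array. An Ifit3 probe (ILMN_1230458) was detected on 1 array, 4-week D, an Oasl2 probe (ILMN_2599154) on 1 array, 1-week A, and the Iigp1 probe (ILMN_2612776) on 1 array, 6-week C.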

How the results depend on the processing

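With the array set in the model, members lower at 1 week went from 7 to 1, at 6 weeks from 14 to 0 (higher from 1 to 0), at 6 weeks against 1 week from 4 to 1, and higher at 6 weeks against 4 weeks from 1 to 0. At 6 weeks against 4 weeks 0 of all 8027 genes were called in that model, so the last drop is no result about the members. Over all genes 1148 were called at 1 week, 934 at 6 weeks and 425 at 6 weeks against 1 week. The gamma median was then -0.060 at 1 week and -0.58 at 6 weeks, Gbp2 at 6 weeks 0.43 and Irf7 at 6 weeks 0.071. Without 1-week arrays B and C, which leaves 1 array of that group, assumed to vary like the other groups, members at 1 week were 5 higher and 2 lower, at 4 weeks 16 lower, at 4 weeks against 1 week 6 lower, at 6 weeks against 1 week 12 lower and at 6 weeks against 4 weeks 1 lower, with a gamma median of -0.060 at 1 week. Calls over all genes moved in both of these fits as well, and the cause of the shifts was not tested.

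With no background correction 1 member was higher at 1 week and 1 at 4 weeks against 1 week. Calls in either direction over all 8027 genes were 2108 and 814 there. With median centring 15 were lower and 0 higher at 4 weeks, 2 higher at 6 weeks, 6 lower and 1 higher at 4 weeks against 1 week, 2 lower at 6 weeks against 1 week and 0 higher at 6 weeks against 4 weeks. Of all genes 2332 were called at 4 weeks in that setting, 3426 at 6 weeks and 1011 at 4 weeks against 1 week. The totals were 240 at 6 weeks against 1 week and 845 at 6 weeks against 4 weeks. With no detection filter 2 were lower at 1 week, 1 at 4 weeks against 1 week and 2 at 6 weeks against 1 week, and 0 higher at 6 weeks against 4 weeks. Of the 16590 genes then tested, 1822, 543, 533 and 351 were called in those comparisons. With a probe required on every array of a group, or all probes tested, 1 was higher at 4 weeks against 1 week (768 of 7333 and 769 of 8027 genes called). With the mean of a gene's probes 1 was higher at 1 week, 0 at 4 weeks, 0 at 6 weeks and 0 at 6 weeks against 4 weeks, with 1 lower in the last, and the log2 change of Irgm1, 4 weeks against naive, was -0.17. Over all genes 2065, 2247, 3124 and 586 were called in those comparisons. With only the groups compared 1 was higher and 1 lower at 1 week, 17 lower at 4 weeks and 0 lower at 6 weeks against 1 week. Over all 8027 genes 1099, 3145 and 169 were called there. In the main model these totals were 1067 higher and 984 lower, 1222 and 1038, and 424 and 313. With Irgm1 at its other probe 1 was higher at 1 week, and 0 at 4 weeks, 6 weeks and 6 weeks against 4 weeks, and Irgm1 was at -0.41, -1.26, -1.48 and -0.22 in those 4 comparisons.

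In the value table without a replicate block 1 member was higher at 1 week and 1 at 4 weeks against 1 week, and the gamma medians were -0.64 at 4 weeks and -0.71 at 6 weeks. With the replicate number as a block 1 was higher at 1 week, 1 lower at 4 weeks against 1 week, 1 lower at 6 weeks against 1 week and 0 higher at 6 weeks against 4 weeks, with gamma medians of -0.66 and -0.71. Over all 8027 genes 1709, 279, 402 and 102 were called in those comparisons with the block. Without it 2064 were called at 1 week and 798 at 4 weeks against 1 week. Same-numbered samples deviated together (r over 0.1) in 2 of 18 pairs, from -0.321 to 0.216, so the numbers were not taken as pairs.

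Leaving out each array in turn gave 1 to 2 higher and 2 to 8 lower at 1 week, 1 higher and 6 to 15 lower at 4 weeks, and 1 higher and 9 to 15 lower at 6 weeks. Between TAA times it gave 0 to 1 higher and 1 to 5 lower at 4 weeks against 1 week, 1 to 8 lower at 6 weeks against 1 week and 0 to 1 higher at 6 weeks against 4 weeks. Calls over all 8027 genes moved as well. They ran from 1381 to 2237 at 1 week, 1600 to 2563 at 4 weeks and 2467 to 3438 at 6 weeks. Between TAA times the ranges were 359 to 1055, 274 to 1396 and 106 to 654 in the same order. Members lower at 1 week were 2 without naive array A, 3 without naive B, naive C or 1-week C, and 4 without 4-week D. Members lower at 4 weeks were 15 without 1-week C, and those lower at 6 weeks were 9 without naive A, 6-week B or 6-week C. Against 1 week, leaving out 1-week A gave 1 lower at 4 and 1 at 6 weeks, leaving out 1-week C gave 5 and 8, and 4-week C, 6-week A, B or C also moved these counts, to 1 or 2. The higher call of Irgm1 at 6 weeks against 4 weeks was lost when any 1 array of the naive, 4-week or 6-week groups was left out. Of 42 called changes of single members, 14 kept their call and direction with the array set in the model, 26 lost the call and 2 reversed. Under each other change made to the processing of the raw table at least 29 kept both. The 6-week arrays were dim (mean intensity 195 to 273), as was 1-week C (177), which limits what can be read on them.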
